A study of Mus musculus with 6 samples.

Results

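The insulin-like growth factor (IGF) axis was followed through 10 genes of the left ventricle after pressure overload. These were the ligands Igf1 and Igf2, the receptors Igf1r and Igf2r, the binding proteins Igfbp3, Igfbp4, Igfbp5, Igfbp6 and Igfbp7, and the imprinted long noncoding RNA H19. They were chosen by gene name, with earlier results of these data known, so counts among them beside all genes are description and not a test. All 10 were found among the 54532 genes of the count table. All 10 passed the filter on low counts that left 14774 genes for testing.

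RNA-seq libraries of poly-A selected RNA were made from the left ventricles of 3 mice that overexpressed HINT2, a mitochondrial nucleotide hydrolase, in cardiomyocytes (TG) and of 3 non-transgenic mice (NTG). The TG genotype is labelled HINT2CTG-Myh6Cre and the NTG genotype C57BL/6J. According to the methods, a CAG-driven HINT2 transgene was switched on by Cre under the cardiomyocyte promoter Myh6, after tamoxifen at 5 mg/kg per day for 7 days. All 6 hearts had undergone aortic banding (AB), a surgical narrowing of the aorta that raises the load on the ventricle, in male mice operated at 8 to 10 weeks of age, and were taken 4 weeks later. The study asked how HINT2 acts on the remodelling of the loaded heart. No sham-operated heart was analysed here, so the comparison was between genotypes under load. Whether NTG mice carried Cre or received tamoxifen is not given in the sources used here, so any part of Cre or tamoxifen in a difference cannot be told apart from that of HINT2.

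IGF1 and IGF2 are secreted growth factors that signal through the IGF1 receptor, a tyrosine kinase whose AKT branch is known for physiological growth of the heart. The IGF2 receptor, also the mannose-6-phosphate receptor, carries IGF2 to lysosomes for degradation. Binding proteins hold most of the secreted IGF outside cells, and proteases release it by cutting them. Igf2 and H19 lie side by side on chromosome 7 and are expressed from opposite parental copies under a shared imprinting control region.

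Depth was similar in both groups, at 14863568 to 17581220 counts per library in NTG and 14944465 to 17235802 in TG. Hint2 itself had 793, 828 and 859 counts in TG, and 12, 545 and 559 in NTG. The library NTG 1 therefore stood apart, with 0.819 CPM (the normalised read count, scaled to library size with TMM factors) against 28.9 and 32.3 in the other NTG hearts. In a principal component analysis NTG 1 scored -5.08 on the leading axis (52.3% of variance), between the TG hearts at -36.5 to -10.7 and NTG 2 and NTG 3 at 55.7 and 29.3. For each of the 10 genes, the value without NTG 1 is given beside the result. Cardiomyocyte markers were abundant, with a summed CPM of 37668, 22888 and 30882 in NTG 1, NTG 2 and NTG 3 and 43493, 35409 and 42347 in TG. The summed CPM of 9 fibroblast markers was 4882, 11050 and 6908 in NTG 1, NTG 2 and NTG 3 and 2754, 4160 and 2486 in TG, with none of the 9 at 0.

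Most genes of the axis were measured at lower levels in TG. The fitted difference was below 0 in 9 of the 10 and above it in Igf2. In 7 of the 10, each TG heart was below each NTG heart, which was so in 12.3% of all genes tested, and in 0 of the 10 was TG above, against 11.2%. Among the genes lower in TG, the largest differences belonged to Igfbp3, Igfbp7, Igf1, Igfbp6 and H19, at 1.74-fold to 4.76-fold lower levels in TG. No gene of the whole table passed the edgeR quasi-likelihood test after adjustment, with a smallest adjusted p of 0.196, so 0 of the 10 were called and 0% of all genes were. At an unadjusted p under 0.05, 7 of the 10 were lower and 0 higher, beside 9.76% and 8.83% of all genes. DESeq2, the tool the study used, called 5 of the 10 lower and 0 higher, taking an adjusted p below 0.05 with a log2 difference past 0.5 in size, beside 2.39% and 1.54% of all genes. Leaving out any one of NTG 2, NTG 3, TG 1 and TG 3 took the DESeq2 calls to 0 of the 10, and 3 were left without TG 2 (Igf1, Igfbp6 and Igfbp7). Over all genes the share called lower fell as well, to 0.53%, 0.85%, 0.52% and 0.47% in that order. It was 3.23% without TG 2. The DESeq2 adjusted p-values given gene by gene below are those with all 6 hearts, unless a heart is named as left out. The median log2 fold change over the 10 was -0.59, against -0.0081 over all genes tested. The plot of levels by heart gives every measurement.

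**Figure D1:**
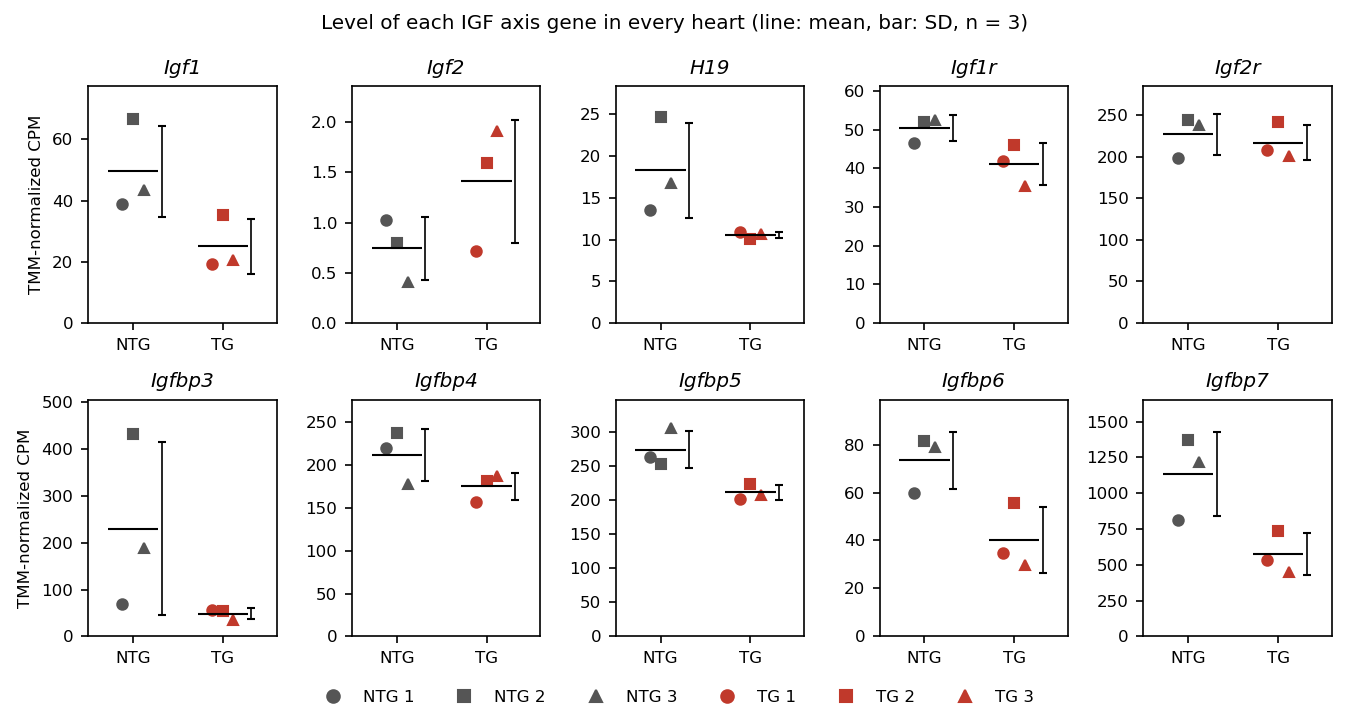
Normalised read count (TMM-normalized CPM, linear axes from 0) of the 10 genes in each of 3 NTG (grey) and 3 TG (red) hearts, with a horizontal line at the mean and a bar for the SD. Igfbp3 spanned 69.7 to 432 CPM within NTG, whereas its TG values lay between 35.2 and 56.5.

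Igf1 (chr10:87858265-87937042, plus strand, GRCm38) encodes the ligand with the strongest link to growth. Its level was 38.8, 66.6 and 43.4 CPM in NTG 1, 2 and 3, and 19.2, 35.4 and 20.7 CPM in TG 1, 2 and 3. The groups did not overlap, although TG 2 came within a few CPM of NTG 1. Means were 25.1 ± 8.97 CPM (SD, n = 3) in TG and 49.6 ± 14.9 CPM (SD, n = 3) in NTG, a 1.98-fold lower level. The log2 fold change was -0.98 (SE 0.29, 95% interval -1.68 to -0.29), with an unadjusted p of 0.0125 and an adjusted p of 0.204 by edgeR, and an adjusted p of 0.0245 by DESeq2. An exact two-sided permutation test gave p = 0.1, the smallest possible for 3 against 3 hearts. Without NTG 1 the difference was -1.13 on the log2 scale, and leaving out single hearts moved it between -1.32 and -0.71.

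Igf2 (chr7:142650766-142666816, minus strand), a fetal growth factor kept low in the adult rodent, was close to the limit of detection. Only 15, 15 and 7 reads were counted in NTG and 10, 28 and 31 in TG. These correspond to 1.02, 0.797 and 0.405 CPM in NTG and 0.721, 1.59 and 1.91 CPM in TG. TG 2 and TG 3 were above all NTG hearts, but TG 1 was below NTG 1 and NTG 2, so the groups overlapped. The log2 fold change of 0.94 (SE 0.49, 95% interval -0.17 to 2.06) had an adjusted p of 0.328 by edgeR and 0.383 by DESeq2, and an increase was not shown at this depth. Without NTG 1 it was 1.22, with an adjusted p of 0.201 by edgeR. Of the 5723 exonic bases of Igf2, 3596 (62.8%) are also exons of the overlapping gene model Gm49394 on the same strand, which had 0 counts in every library. How reads shared by both models were counted is not given in the sources used here, so the share of the transcript that the Igf2 counts cover cannot be told from them. The atrial genes Myl7, Sln and Myl4 stood high in TG 3, NTG 1 and TG 2, with Myl7 at 19.5, 0.159 and 0 CPM in NTG and 1.59, 7.67 and 64.4 CPM in TG. Summed with Bmp10, at no more than 3 counts per heart, and with the load-responsive Nppa, the 5 atrial markers reached 821 to 1403 CPM in NTG and 177 to 896 CPM in TG. Their part in the Igf2 values was not tested.

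H19 (chr7:142575529-142578143, minus strand) is a long noncoding RNA that lies 72622 bases from Igf2 and is the precursor of the microRNA miR-675. Both mature forms are shown because they are the known small RNA product of H19. They lie in exons of 3 of the 7 annotated H19 transcripts, on the minus strand at chr7:142577112-142577133 for the 5p form and chr7:142577078-142577099 for the 3p form (RefSeq, GRCm38.p6). Capitals mark the seed, bases 2 to 8, which pairs with target RNAs.
mmu-miR-675-5p: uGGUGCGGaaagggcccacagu
mmu-miR-675-3p: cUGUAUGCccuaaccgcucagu
Of the 1679 mature mouse microRNAs listed, 0 others have either seed. Mature microRNAs have no poly-A tail and were not measured in these libraries, and the hairpin gene Mir675 had 0 counts in all 6.

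The H19 transcript was at 13.5, 24.6 and 16.8 CPM in NTG and at 10.9, 10.1 and 10.6 CPM in TG. The TG hearts were nearly alike, all NTG hearts were above them, and NTG 1 was the nearest. Means were 10.5 ± 0.391 CPM (SD, n = 3) in TG and 18.3 ± 5.72 CPM (SD, n = 3) in NTG, a 1.74-fold lower level. On the log2 scale TG minus NTG was -0.80 (SE 0.21, 95% interval -1.29 to -0.31), with an adjusted p of 0.196 by edgeR and 0.0364 by DESeq2. It was -0.98 without NTG 1, where edgeR called it at an adjusted p of 0.0294, and -0.53 without NTG 2. H19 and Igf2, neighbours with a common control region, thus had fitted differences of opposite sign. The ratio of the length-corrected levels of Igf2 and H19, with 0.5 added to each count, was 0.0336, 0.0143 and 0.0111 in NTG and 0.0298, 0.0686 and 0.0785 in TG, with overlap. Its log2 difference of 1.64 gave p = 0.2 in the exact two-sided permutation test (0.267 after Benjamini-Hochberg adjustment over 8 ratios), and it was 2.11 without NTG 1.

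Igf1r (chr7:67952827-68233668, plus strand), the signalling receptor, was at 46.4, 52.1 and 52.6 CPM in NTG and 42.0, 46.1 and 35.4 CPM in TG. The groups touched without overlapping, as NTG 1 and TG 2 differed by less than 1 CPM. This corresponded to a log2 fold change of -0.29 (SE 0.12, 95% interval -0.56 to -0.023), a 1.22-fold lower level, with an adjusted p of 0.240 by edgeR and 0.278 by DESeq2, and it was -0.35 without NTG 1. The ligand differed by more than its receptor. The ratio of the length-corrected levels of Igf1 and Igf1r within a heart was 1.42, 2.17 and 1.401 in NTG and 0.776, 1.303 and 0.990 in TG. This ratio was lower in all 3 TG hearts, with a log2 difference of -0.70 (exact two-sided permutation p = 0.1, adjusted 0.267), or -0.80 without NTG 1.

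Igf2r (chr17:12682406-12769664, minus strand), the scavenging receptor, showed no detectable difference. Its level was 199, 244 and 238 CPM in NTG and 208, 241 and 201 CPM in TG, and the groups overlapped throughout. A log2 fold change of -0.065 was fitted, with a 95% interval of -0.35 to 0.22 and an adjusted p of 0.798, and it was -0.16 without NTG 1. The antisense RNA Airn, named for its overlap with Igf2r, silences Igf2r on the paternal copy in many tissues, and shares 28354 bases with the gene on the opposite strand but none of its exons. Airn had 9.97, 9.88 and 9.20 CPM in NTG and 12.8, 10.6 and 11.5 CPM in TG, a log2 difference of 0.27 with an adjusted p of 0.323. TG lay above NTG in this RNA while Igf2r overlapped, and whether reads were counted by strand is not given in the sources used here.

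Binding protein transcripts made up most of the axis. Per kilobase of transcript, Igfbp7 was the highest of the 10 genes at 707 CPM per kb over the 6 hearts, followed by Igfbp6 at 51.0, Igfbp3 at 44.5, Igfbp4 at 43.8 and Igfbp5 at 40.4. Igf2r followed at 23.8, H19 at 5.86, Igf1 at 3.77, Igf1r at 2.73 and Igf2 at 0.188 CPM per kb. In this order Igfbp7 lay above Igfbp6, Igfbp5 above Igf2r, Igf2r above H19, and Igf1r above Igf2 with no overlap over the 6 hearts. The neighbours among Igfbp6, Igfbp3, Igfbp4 and Igfbp5 overlapped, as did H19 with Igf1 and Igf1 with Igf1r. H19 was nevertheless above Igf1 within each of 6 hearts, and Igf1 above Igf1r in 4 of 6, the exceptions being TG 1 and TG 3. The place of Igfbp3 differed between the groups. It was above Igfbp4 in NTG 2 and NTG 3 only, and with 18.0, 17.0 and 11.2 CPM per kb in TG it lay below Igf2r, at 22.3, 25.9 and 21.6 CPM per kb, in all 3 TG hearts.

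**Figure D2:**
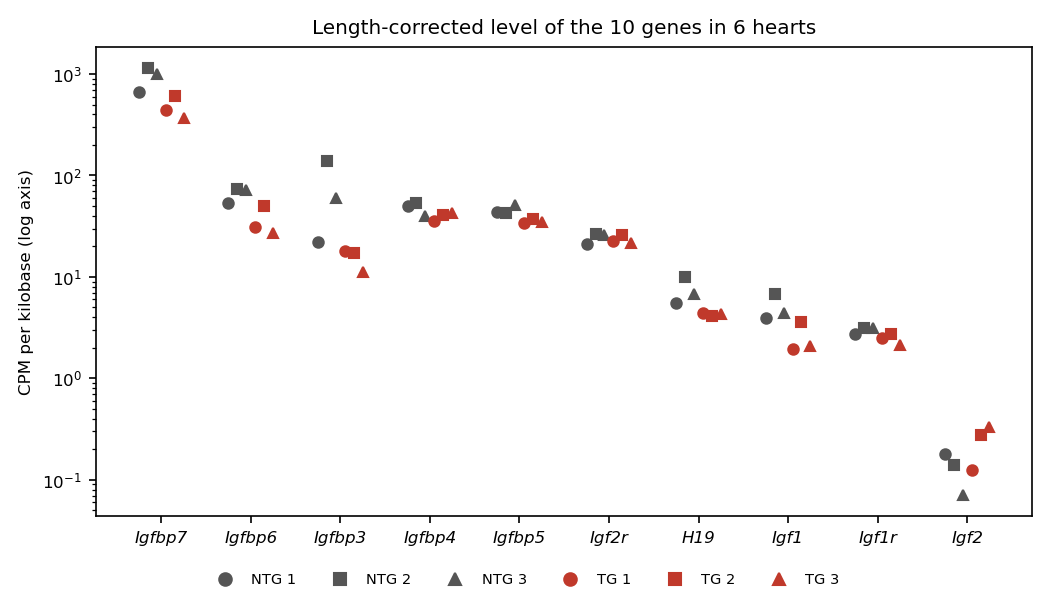
Level per length (CPM per kilobase of transcript, log axis) of the 10 genes in each heart, ordered by the mean of the 6. Igfbp7 stood alone at 372 CPM per kb or more, and Igf2 reached at most 0.334 CPM per kb.

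Igfbp3 (chr11:7206086-7213923, minus strand), the main carrier of IGFs in blood and also secreted locally, had the largest difference and the largest spread on the log2 scale. It was at 69.7, 432 and 189 CPM in NTG and 56.5, 53.3 and 35.2 CPM in TG. All TG hearts were below all NTG hearts, but the NTG values differed several-fold among themselves and NTG 1 was close to TG. Means were 48.3 ± 11.5 CPM (SD, n = 3) in TG and 230.3 ± 185 CPM (SD, n = 3) in NTG. The log2 fold change was -2.25 (SE 0.62, 95% interval -3.74 to -0.77), a 4.76-fold lower level, with an adjusted p of 0.196 by edgeR and 0.0350 by DESeq2. Its size depended on NTG 2. The edgeR estimate was -1.43 without that heart, with an adjusted p of 0.474 by edgeR and 0.278 by DESeq2. Leaving out NTG 1 gave -2.69, with an adjusted p of 0.0400 by edgeR and 4.06e-06 by DESeq2. Its neighbour Igfbp1, 3539 bases away, had 0 counts in all hearts.

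Igfbp4 (chr11:99041244-99054392, plus strand) encodes a binding protein that blocks IGF action until the protease PAPP-A cuts it. It was at 220.0, 238 and 178 CPM in NTG and 157, 181 and 187 CPM in TG. NTG 3 fell among the TG hearts, so the groups overlapped. Its log2 fold change of -0.27 (SE 0.13, 95% interval -0.58 to 0.035) had an adjusted p of 0.310 by edgeR and 0.328 by DESeq2, and it was -0.25 without NTG 1.

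Igfbp5 (chr1:72857932-72874884, minus strand), which encodes a binding protein held in the extracellular matrix, was at 264, 254 and 305 CPM in NTG and 202, 224 and 208 CPM in TG. All TG hearts were lower, and here NTG 1 was no nearer to TG than NTG 2. Igfbp5 had a log2 fold change of -0.37 (SE 0.11, 95% interval -0.63 to -0.12), a 1.296-fold lower level, with an adjusted p of 0.200 by edgeR and 0.0543 by DESeq2, and it was -0.40 without NTG 1. Its neighbour Igfbp2, which lies 5457 bases away, went the other way, with 18, 11 and 3 counts in NTG and 80, 23 and 16 in TG. Those groups overlapped, and TG 1 alone held most of the TG counts (log2 fold change 2.02, adjusted p of 0.276).

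Igfbp6 (chr15:102144362-102149511, plus strand), whose protein binds IGF2 in preference to IGF1, was at 59.7, 81.3 and 79.1 CPM in NTG and 34.8, 55.7 and 29.9 CPM in TG. All TG hearts were lower, with TG 2 just under NTG 1. Igfbp6 had a log2 fold change of -0.87 (SE 0.24, 95% interval -1.45 to -0.29), a 1.83-fold lower level, with an adjusted p of 0.196 by edgeR and 0.0206 by DESeq2. Without NTG 1 it was -1.001.

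Igfbp7 (chr5:77349240-77408041, minus strand), a secreted protein with low affinity for IGFs, was at 810.4, 1375 and 1220.5 CPM in NTG and 535, 739 and 449 CPM in TG. All TG hearts were lower, and TG 2 again came closest to NTG 1. Means were 575 ± 149 CPM (SD, n = 3) in TG and 1135 ± 292 CPM (SD, n = 3) in NTG, a 1.98-fold lower level. The log2 fold change of -0.98 (SE 0.25, 95% interval -1.56 to -0.40) had the smallest p of the 10 genes, at 0.00461 unadjusted and 0.196 adjusted by edgeR, and 0.00531 adjusted by DESeq2. Without NTG 1 it was -1.18, with an adjusted p of 0.0273 by edgeR. A stretch of 85 exonic bases at its end is shared with Polr2b on the opposite strand, a gene with 845 to 1246 counts per library.

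**Figure D3:**
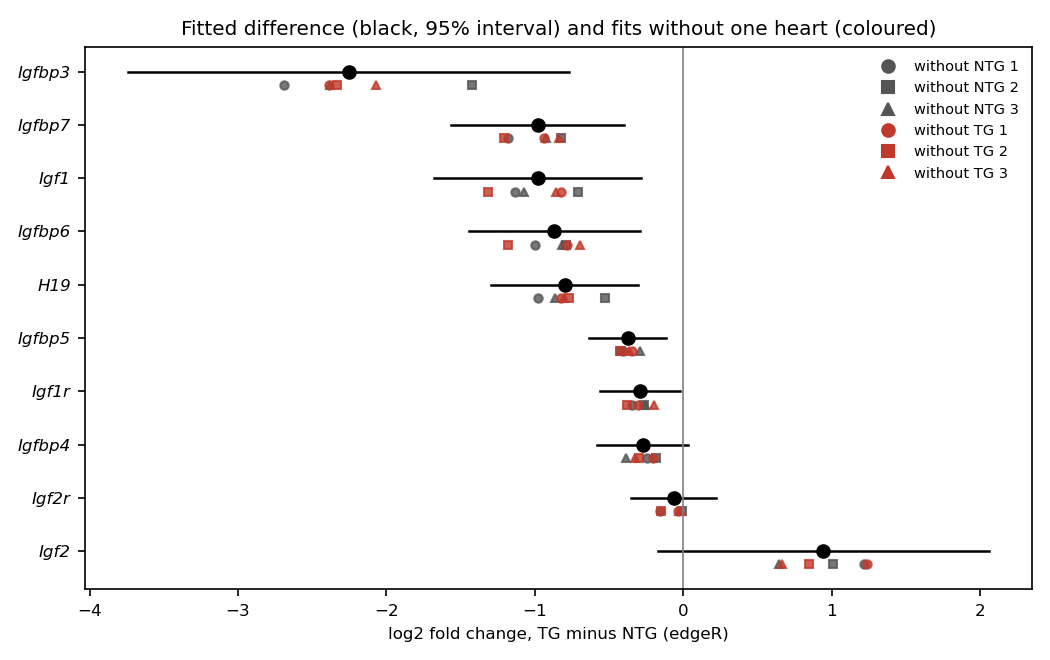
Log2 fold change of TG minus NTG for each gene by edgeR (black point) with its 95% interval (line), and the same estimate after leaving out 1 heart (coloured symbols, grey for an NTG heart and red for a TG heart). For Igfbp3 the estimate moved between -2.69 without NTG 1 and -1.43 without NTG 2, and for each gene all estimates stayed on the same side of 0.

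The proportions among the 5 binding proteins overlapped between the groups. Igfbp7 took 79.8%, 78.7% and 81.9% of the summed length-corrected level of the 5 in NTG and 78.9%, 80.8% and 76.3% in TG. The share of Igfbp3 was 2.65%, 9.55% and 4.91% in NTG and 3.22%, 2.25% and 2.31% in TG, where TG 1 was above NTG 1. None of the 5 shares separated the groups, with exact two-sided permutation p-values of 0.2 for Igfbp3, Igfbp4 and Igfbp5, 0.9 for Igfbp6 and 0.5 for Igfbp7. After adjustment over the 8 ratios these were 0.267, 0.900 and 0.571. Without NTG 1 the log2 difference in the Igfbp3 share was -1.42 and without NTG 2 it was -0.50, against -0.96 with all hearts.

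The 250 bases before the RefSeq start of Igfbp3, Igfbp6 and Igfbp7, the binding protein genes with the largest differences, are shown to compare the promoters of genes that were lower together. All are from GRCm38.p6 and read 5′ to 3′ on the strand of the gene, at chr11:7213924-7214173 (minus), chr15:102143936-102144185 (plus) and chr5:77408046-77408295 (minus). Capitals mark matches, on either strand, to 5 motifs: the TATA box as TATANA, the CCAAT box as CCAAT, the GC box as GGGCGG, the AP-1 site as TGANTCA and the hypoxia response core as ACGTG.
Igfbp3: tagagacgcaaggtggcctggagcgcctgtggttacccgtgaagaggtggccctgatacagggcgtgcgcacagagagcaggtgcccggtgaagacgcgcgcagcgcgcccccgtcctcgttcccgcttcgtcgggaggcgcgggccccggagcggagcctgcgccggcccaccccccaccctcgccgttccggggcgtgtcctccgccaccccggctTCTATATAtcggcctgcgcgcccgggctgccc
Igfbp6: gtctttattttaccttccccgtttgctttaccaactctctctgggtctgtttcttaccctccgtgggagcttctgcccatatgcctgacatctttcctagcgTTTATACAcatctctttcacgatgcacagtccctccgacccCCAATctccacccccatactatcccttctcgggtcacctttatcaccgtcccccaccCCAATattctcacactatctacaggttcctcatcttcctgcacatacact
Igfbp7: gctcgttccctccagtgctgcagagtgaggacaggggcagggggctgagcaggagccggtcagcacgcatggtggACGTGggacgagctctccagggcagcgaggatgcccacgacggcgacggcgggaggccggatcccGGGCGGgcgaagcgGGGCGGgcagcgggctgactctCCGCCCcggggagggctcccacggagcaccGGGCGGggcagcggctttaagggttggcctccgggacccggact
The Igfbp3 window held overlapping TATANA matches 32 and 30 bases before the start, a motif found in 22.6% of 32851 promoter windows of this length. Igfbp6 held the same motif 148 and 146 bases before its RefSeq start, and CCAAT matches at 107 and 50 bases, a motif of 33.8% of windows. That RefSeq start lies upstream of chr15:102144362, where the counted Igfbp6 gene model begins. The Igfbp3 and Igfbp7 windows end within a few bases of their gene models. Distances and GC content of the Igfbp6 window are therefore not at like positions with those of Igfbp3 and Igfbp7. Igfbp7 had no TATANA match and 4 GGGCGG matches, a motif of 32.7% of windows, with 1 ACGTG match (16.6% of windows). GC content was 73.2% in Igfbp3 and 74% in Igfbp7 but 49.6% in Igfbp6, against a median of 52.4% over all windows. TGANTCA, in 6.75% of windows, matched in none of the 3. No motif of the 5 was common to all 3 windows.

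Across hearts, the order of values was shared by several of the genes. Igf1, H19, Igfbp3, Igfbp6 and Igfbp7 were all highest in NTG 2, and NTG 1 was the lowest NTG heart for each of them. Igf1, Igfbp6 and Igfbp7 were highest among TG hearts in TG 2, whereas Igfbp3 and H19 were not. Summed fibroblast markers had NTG 2 highest, NTG 1 lowest of NTG and TG 2 highest of TG as well. Summed macrophage and red blood cell markers also had NTG 2 highest and NTG 1 lowest of NTG. Within TG those sums were highest in TG 3 for macrophages and in TG 1 for red blood cells. All 9 fibroblast markers were fitted lower in TG, beside 51.3% of all genes, and 6 had an unadjusted p under 0.05, beside 9.76%. Named here after their values were seen, Postn (-2.54), Dcn (-0.65), Pdgfra (-0.39) and Tcf21 (-0.050) span the range of their log2 fold changes. All 8 macrophage markers were fitted lower too, 3 of them without overlap and with an unadjusted p under 0.05 (12.3% and 9.76% of all genes), and their median log2 fold change was -0.58 against -0.65 for the fibroblast list. The macrophage sums overlapped (953 to 1775 CPM in NTG and 721 to 1016 in TG). Summed markers of red blood cells were lower in TG without overlap (1310 to 2247 and 762 to 908 CPM), and those of endothelial cells (1743 to 2030 CPM in all hearts) and of mural cells (1488 to 1960 CPM) overlapped. Of 8 endothelial markers 4 were fitted higher, with 2 higher and 1 lower at an unadjusted p under 0.05, and of 8 mural markers 4 were fitted higher, with 2 higher and 0 lower. All 8 cardiomyocyte markers were fitted higher in TG, with a median log2 fold change of 0.43 and 2 at an unadjusted p under 0.05, beside 8.83% of all genes. Their sum was lowest in NTG 2, where Igf1, H19, Igfbp3, Igfbp6 and Igfbp7 were highest, and the groups overlapped. Mitochondrially encoded genes took 19.2%, 13.4% and 14.3% of counts in NTG 1, NTG 2 and NTG 3 and 21.5%, 16.0% and 20.3% in TG 1, TG 2 and TG 3. That share was lowest in NTG 2 within NTG and in TG 2 within TG, the hearts where Igf1, Igfbp6 and Igfbp7 were highest in their group. In bulk tissue, fewer cells of a type and less RNA per cell cannot be told apart, and the part of these markers and of the mitochondrial share in the IGF results was not tested.

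**Figure D4:**
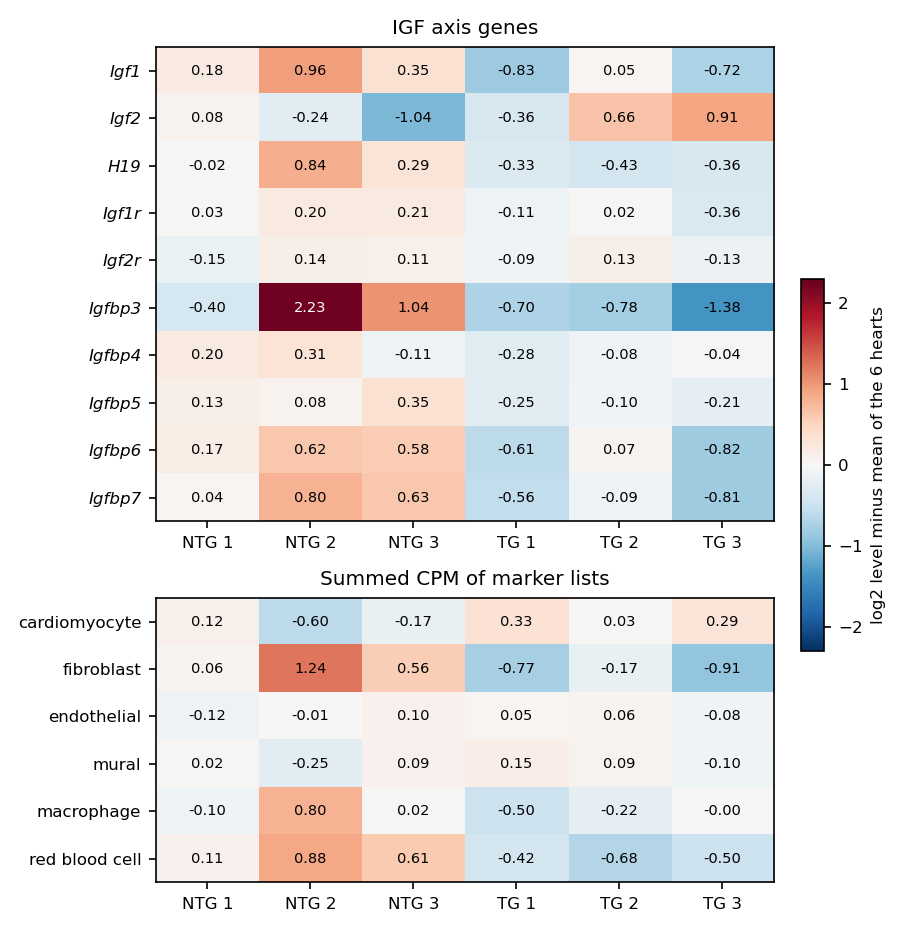
Log2 level of each gene (upper panel, log2 CPM) and of the summed CPM of each marker list (lower panel) in the 6 hearts, each row given as the difference from its mean over the hearts. In the upper panel Igfbp3 in NTG 2 was the farthest value from its mean, at 2.23, and the fibroblast list had its highest value, 1.24, in the same heart.

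The genes whose pattern over the 6 hearts was most like that of the 3 most variable members were found by the root mean square (RMS) difference of centred log2 CPM. Closest to Igfbp3 were Cmah (0.156), an enzyme of sialic acid hydroxylation, Star (0.244), which moves cholesterol into mitochondria, and the zinc receptor gene Gpr39 (0.319). Cmah had 7.58, 43.6 and 22.0 CPM in NTG and 4.98, 5.34 and 2.90 CPM in TG. NTG 2 was thus far above the rest in Cmah as in Igfbp3. Closest to Igf2 were the interleukin-2 receptor subunit gene Il2rb (0.141), Gm9774 (0.160) and the interferon-induced Isg15 (0.186). Isg15 had 14.95, 12.2 and 10.1 CPM in NTG and 12.6, 23.9 and 30.4 CPM in TG, with TG 1 again among the NTG hearts. Closest to Igf1 were the secreted lectin gene Clec11a (0.0881), the transcription factor gene Foxp2 (0.0968) and Pde1a (0.10), a calcium-dependent cyclic nucleotide phosphodiesterase. Each RMS value is over 6 hearts and describes likeness within these libraries.

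Of 12 listed proteases that cut binding proteins, and their inhibitors, 10 were tested and 8 were fitted lower in TG. At an unadjusted p under 0.05, 6 were lower and 0 higher, beside 9.76% and 8.83% of all genes, and 5 were lower in TG without overlap, beside 12.3% of all genes. None was called by edgeR (0 of 10). The median log2 fold change of the list was -0.64, beside -0.65 for the fibroblast markers, whose part in it was not tested. Pappa, which encodes the IGFBP4 protease PAPP-A, was at 2.39, 7.27 and 3.70 CPM in NTG and 1.23, 1.36 and 1.42 CPM in TG. Stc1, which encodes stanniocalcin 1, an inhibitor of PAPP-A, was at 28.8, 40.9 and 41.4 CPM in NTG and 21.6, 12.3 and 8.58 CPM in TG. The protease and its inhibitor were thus both lower in each TG heart, with log2 fold changes of -1.74 (SE 0.42, unadjusted p of 0.00323) and -1.39 (SE 0.33, unadjusted p of 0.00392) and an adjusted p of 0.196 each. Adam9, a membrane metalloprotease, was at 106, 207 and 160.5 CPM in NTG and 79.6, 93.9 and 81.3 CPM in TG (log2 fold change -0.90, adjusted p of 0.196). Named after their values were seen, the others below an unadjusted p of 0.05 were Mmp2 (-0.59), Ctsd (-0.34) and Adam12 (-1.16).

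Signalling genes downstream of the IGF1 receptor differed little. Of 38 listed, 37 were tested, and the median log2 fold change was 0.0063. At an unadjusted p under 0.05, 3 were higher and 0 lower, where 8.83% and 9.76% of all genes were, so the higher share was near that of all genes. Without overlap, 6 were higher in TG and 1 lower, beside 11.2% and 12.3% of all genes. The 3 below that p were Akt1, Hras and Map2k2, which encode kinases and a GTPase of the AKT and RAS branches. Akt1 was at 264, 204 and 229.6 CPM in NTG and 329.7, 297 and 279 CPM in TG, with no overlap and a log2 fold change of 0.38 (SE 0.13, adjusted p of 0.215). Hras and Map2k2 had log2 fold changes of 0.26 and 0.25, also without overlap and with adjusted p-values of 0.250 and 0.262. These are transcript levels and say nothing of the phosphorylation by which the pathway signals.

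Other ligands, receptors and carriers were mostly too low to test, with 4 of 10 passing the filter. Of these, 2 were fitted higher and 2 lower in TG, with a median log2 fold change of 0.25. At an unadjusted p under 0.05, 0 were higher and 1 lower, beside 8.83% and 9.76% of all genes. Igfbp2, given above beside Igfbp5, was among those fitted higher, at 2.02. Igf2bp2, which encodes an RNA-binding protein of the Igf2 mRNA, was at 15.4, 17.7 and 16.7 CPM in NTG and 13.6, 14.8 and 10.7 CPM in TG. It was lower in all TG hearts, with a log2 fold change of -0.35 and an adjusted p of 0.262. The insulin receptor gene Insr had a log2 fold change of -0.15 (95% interval -0.40 to 0.097).

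H19 and Igf2 were also set beside other imprinted genes and beside their neighbours on chromosome 7. Of 24 other imprinted genes 17 were tested, and the median log2 fold change was -0.027, with 3 higher and 1 lower at an unadjusted p under 0.05, beside 8.83% and 9.76% of all genes. Gnas, encoding the stimulatory G protein alpha subunit, was at 71.5, 68.7 and 72.4 CPM in NTG and 109, 86.9 and 95.7 CPM in TG (log2 fold change 0.45, SE 0.10, adjusted p of 0.196). Nnat and Plagl1, which encode neuronatin and a zinc finger factor, had log2 fold changes of 1.55 and -0.87, with adjusted p-values of 0.223 and 0.224. Snrpn, named after its value was seen, was the other higher one, at 0.38.

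Of 10 neighbours of H19 and Igf2 on chromosome 7, 5 were tested, and 1 was higher and 1 lower at an unadjusted p under 0.05, the shares over all genes being 8.83% and 9.76%. Mrpl23, a mitochondrial ribosome gene, was at 39.2, 40.0 and 38.8 CPM in NTG and 50.3, 47.1 and 51.0 CPM in TG, so TG was higher with no overlap (log2 fold change 0.33, SE 0.082, adjusted p of 0.196). Ctsd, encoding the lysosomal protease cathepsin D, was lower (-0.34, adjusted p of 0.215), and the leukocyte gene Lsp1 had a log2 fold change of -0.51 with overlap (adjusted p of 0.341). Genes near H19 therefore lay on both sides of 0.

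**Figure D5:**
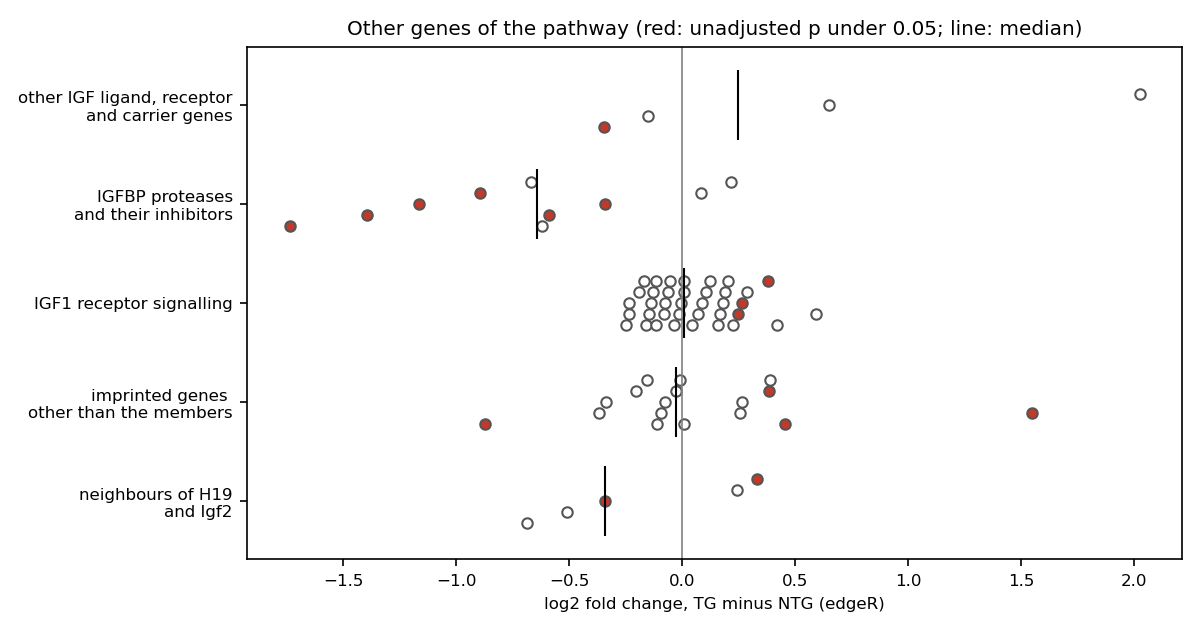
Log2 fold change of TG minus NTG (edgeR) for each tested gene of 5 lists around the IGF axis, filled red at an unadjusted p under 0.05, with a line at the median of each list. The protease list lies mostly below 0 with a median of -0.64, and the IGF1 receptor signalling list is centred near 0 with a median of 0.0063.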

How the data were processed

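Left ventricular RNA of 3 TG and 3 NTG mice was sequenced after poly-A selection. The authors cleaned reads with their own scripts, mapped them, and counted reads per gene with featureCounts, and they deposited these raw counts, 1 column per heart, unnormalized and unpooled. The submitters' processing notes name HISAT2 and DESeq2 and the build GRCh38, although all gene identifiers are mouse ones. Positions of the 10 genes were identical to those of GENCODE M21 (GRCm38). Strand setting and multimapping are not given in the sources used here. Each of the 6 columns matched a library by its label, with 0 unmatched.

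The whole table was analysed in R 4.3.3 with edgeR 4.0.16 (TMM, filterByExpr by group, robust quasi-likelihood test, Benjamini-Hochberg adjustment over 14774 genes). Calls needed an adjusted p below 0.05 with a log2 difference past 0.5 in size. CPM are TMM-normalized, with a prior count of 2 for centred log2 values and 0.5 for log2 ratios. Alternatives were RLE, upper quartile and library size scaling, other filters, DESeq2 1.42.0, limma-voom 3.58.1, the likelihood-ratio test, a replicate block and leaving out each heart. Scripts were tested on simulated data.

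The members and lists were chosen with earlier results of these data known. Named were the 10 members, per list the 3 genes lowest in unadjusted p, the 3 genes most like each of the 3 members with the largest SD, and Hint2. Outside this rule, and with their values seen, genes that overlap or adjoin a member (such as Airn and Igfbp1) and markers (Myl7, Sln, Myl4, Nppa, Bmp10, Postn, Dcn, Pdgfra and Tcf21) were also named. Promoter and microRNA sequences came from RefSeq (GRCm38.p6), where 9 of the 10 genes had a promoter. No label says how the hearts of a group were collected, so p-values measure the spread between these samples. Counting error and spread between hearts both enter each SD.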

Additional observations from a re-analysis of the deposited data

How the results depend on the processing

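For the 10 genes, the sign of the log2 fold change was the same in every alternative that gave a value (22 per gene, 20 for Igf2). Calls depended on the test. edgeR called 0 of the 10 lower, as did limma-voom, RLE, upper quartile and library size scaling, non-robust dispersion and a minimum of 10 counts in every sample. DESeq2 and the likelihood-ratio test each called 5 lower, both times Igf1, H19, Igfbp3, Igfbp6 and Igfbp7, and the absence of a low-count filter gave 1 (H19, adjusted p of 0.0379). The cause was not tested. Over all genes DESeq2 called 228 higher and 353 lower, the likelihood-ratio test 206 and 339, and edgeR without a filter 116 and 116. Leaving out 1 heart gave 0 to 3 calls with edgeR, the 3 being H19, Igfbp3 and Igfbp7 without NTG 1, and 0 to 5 with DESeq2. With DESeq2, the 5 calls remained in number without NTG 1, 3 were left without TG 2 (Igf1, Igfbp6 and Igfbp7), and 0 without any one of NTG 2, NTG 3, TG 1 and TG 3. Over all genes, edgeR without NTG 1 called 404 higher and 432 lower (2.85% lower), DESeq2 without NTG 1 896 and 877 (5.79% lower), and DESeq2 without TG 2 291 and 487 (3.23% lower). DESeq2 called 47 and 79 over all genes without NTG 2 (0.53% lower) and 40 and 128 without NTG 3 (0.85% lower). It called 103 and 79 without TG 1 (0.52% lower) and 29 and 70 without TG 3 (0.47% lower). Genes of the 10 with an unadjusted p under 0.05 in the higher direction numbered 0 to 1 when 1 heart was left out, the 1 being Igf2 without TG 1. The median log2 fold change of the 10 was -0.80 with a minimum of 10 counts in every sample, which drops Igf2. Genes of the 5 lists at an unadjusted p under 0.05 numbered 7 higher and 8 lower, with Ctsd, listed among both the proteases and the neighbours, counted once. The higher count was 4 with library size alone, and leaving out 1 heart gave 3 to 12 higher and 3 to 13 lower, with the most in both directions without NTG 1. Over all genes the same counts were 2075 higher and 2006 lower without NTG 1 and 755 and 853 without TG 1, beside 1305 and 1442 with all hearts. List genes numbered 3 and 3 without TG 1, 4 and 4 without TG 3, 4 and 5 without NTG 2, and 3 and 5 without NTG 3. The counts over all genes fell as well, to 805 and 916 without TG 3, 762 and 805 without NTG 2, and 779 and 1069 without NTG 3. With library size alone, 914 of all genes were higher.

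Replicate numbers gave no evidence of a pairing: correlations of deviations between hearts of the same number were 0.0807, 0.173 and -0.252. The fit with a replicate block called 1 of the 10 lower (Igf1, log2 fold change -0.998, adjusted p of 0.0205), 84 genes higher and 147 lower over all genes, and at an unadjusted p under 0.05 it had 11 list genes higher and 11 lower, with 1650 and 1586 over all genes. Depth limits Igf2 most, with 7 to 31 counts per heart. Library size alone shifted the median of all genes to -0.093.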
